A study of Mus musculus with 4 samples.

Results

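The 10 genes described here encode proteins that neutrophils pack into their granules or make alongside them. Mpo, Elane, Prtn3 and Ctsg belong to the primary granules, and Ltf, Camp, Ngp and Lcn2 to the secondary granules. Cd177 and Retnlg are grouped here as later genes, which is a label and not a stage read from these data. All 10 were chosen by name, out of the 27998 genes in the deposited tables. They were followed through each deposited cell type and through each cluster of the monocyte, macrophage and dendritic cell subset called the MoMacDC bundle. The data were CITE-seq profiles, that is, single-cell RNA counts with counts of antibody tags from the same cells, of CD11b+ splenocytes from C57BL/6 mice of 8 to 12 weeks. One library came from mice in steady state and the other from mice given 3 once-daily injections of 10 µg of GM-CSF (granulocyte macrophage-colony stimulating factor), with the cells taken 24 h after the last injection. The number of animals behind each library and any pooling are not given in the sources used here.

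Neutrophils build their granules in sequence while they mature in the bone marrow. The peroxidase and the serine proteases of the primary (azurophil) granules are transcribed in promyelocytes, the iron-binding and antimicrobial proteins of the secondary (specific) granules in myelocytes and metamyelocytes, and gelatinase granule and surface genes later still. Mature neutrophils have switched most of these genes off and carry the stored proteins, so the granule transcripts of a cell are read as a sign of its stage, with C/EBP factors and PU.1 among the regulators of the promoters.

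Each condition was 1 library, so no test between conditions was possible and the effect of GM-CSF cannot be told apart from a difference between the libraries. A level is the sum of the UMIs (unique molecular identifiers, 1 per captured RNA molecule) of all cells in a group, scaled to 1000000 UMIs of that group (CPM), with an exact 95% Poisson interval. Ratios carry exact binomial intervals and shares of cells carry Clopper-Pearson intervals. All of them cover counting error only. The libraries held 4827 and 6804 cells with 22358903 and 35007567 UMIs in steady state and after GM-CSF, and 8 cell barcodes occurred in both. The deposited cell types and clusters were made from the same RNA, so differences between them are descriptions.

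The main contrast was between the deposited classes Granulocyte and Neutrophil. Granulocyte cells numbered 1929 in steady state and 1791 after GM-CSF, with medians of 1770 and 1229 UMIs. Neutrophil cells were fewer and deeper, 146 and 893 cells, or 3.02% and 13.1% of the library, with medians of 6461.5 and 4404 UMIs. All 10 genes of a neutrophil marker list (S100a8, S100a9, Csf3r, Cxcr2, Mmp9, Retnlg, Ly6g, Camp, Ngp and Ltf) had UMIs in both classes and both libraries. They also all had UMIs in cluster 5 of the MoMacDC bundle in steady state, so presence alone does not identify a class. The list summed to 108891 CPM in Granulocyte and 351293 CPM in Neutrophil cells in steady state, and to 105593 and 280828 CPM after GM-CSF. In that cluster 5 it summed to 336 CPM. Retnlg, Camp, Ngp and Ltf are also among the genes described here. The eosinophil genes Prg2 and Epx were at 0 in steady-state Granulocyte cells, where the 6 eosinophil markers summed to 32.7 CPM, and basophil or mast cell markers summed to 1.63 CPM.

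The genes lie on 7 mouse chromosomes, and some are neighbours. In the GENCODE vM21 annotation of GRCm38, Prtn3 (chr10:79874476-79883174) ends 3.07 kb before Elane (chr10:79886247-79888215), both on the plus strand. Camp (chr9:109847379-109849617, minus strand), Ngp (chr9:110419747-110423012) and Ltf (chr9:111019271-111042767) follow one another on chromosome 9 with gaps of 570 kb and 596 kb. Mpo lies at chr11:87793581-87804413, Ctsg at chr14:56099881-56102574, Lcn2 at chr2:32384633-32388252, Cd177 at chr7:24743983-24760311 and Retnlg at chr16:48872621-48874496. Every one of the 10 is annotated as protein coding.

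The promoters of Elane and Prtn3, neighbours on chromosome 10, are shown beside those of 3 secondary genes, Ltf, Ngp and Lcn2, so that the letters of both classes can be set side by side. Each is the RefSeq sequence of GRCm38.p6 from 250 bases before to 50 bases after the annotated start, read in the direction of the gene, and all 10 genes had an entry. The RefSeq start lies 5191 bases inside the GENCODE gene for Prtn3, 513 bases inside for Lcn2 and 65, 21 and 61 bases inside for Elane, Ltf and Ngp, and the positions below are counted from the RefSeq start. Capitals mark the core letters of a C/EBP site, TTGCNNAA, and of a PU.1 site, GAGGAA, searched on both strands, which do not overlap in these windows. The regions are chr10:79886062-79886361 (plus strand), chr10:79879417-79879716 (plus strand), chr9:111019042-111019341 (plus strand), chr9:110419558-110419857 (plus strand) and chr2:32387690-32387989 (minus strand).
Elane: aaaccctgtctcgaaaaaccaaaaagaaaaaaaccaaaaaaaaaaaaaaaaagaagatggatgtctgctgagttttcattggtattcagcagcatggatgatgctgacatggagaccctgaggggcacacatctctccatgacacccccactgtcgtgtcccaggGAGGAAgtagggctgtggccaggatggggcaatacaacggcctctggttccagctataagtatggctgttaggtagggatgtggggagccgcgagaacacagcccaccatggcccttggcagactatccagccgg
Prtn3: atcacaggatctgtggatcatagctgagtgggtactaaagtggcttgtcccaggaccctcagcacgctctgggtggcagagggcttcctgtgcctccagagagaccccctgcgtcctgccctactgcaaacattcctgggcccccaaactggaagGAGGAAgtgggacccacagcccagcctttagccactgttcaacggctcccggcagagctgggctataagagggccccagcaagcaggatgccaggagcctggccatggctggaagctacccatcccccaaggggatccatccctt
Ltf: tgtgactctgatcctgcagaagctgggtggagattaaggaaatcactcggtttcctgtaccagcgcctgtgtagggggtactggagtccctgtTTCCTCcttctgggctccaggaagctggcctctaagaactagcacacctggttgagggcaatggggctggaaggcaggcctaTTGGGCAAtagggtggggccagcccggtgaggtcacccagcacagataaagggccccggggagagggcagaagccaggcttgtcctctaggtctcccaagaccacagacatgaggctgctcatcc
Ngp: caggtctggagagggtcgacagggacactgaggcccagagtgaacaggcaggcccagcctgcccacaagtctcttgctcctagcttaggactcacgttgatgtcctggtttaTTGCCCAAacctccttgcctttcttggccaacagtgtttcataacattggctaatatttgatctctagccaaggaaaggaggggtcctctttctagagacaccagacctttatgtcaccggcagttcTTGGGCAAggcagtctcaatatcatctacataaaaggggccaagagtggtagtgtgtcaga
Lcn2: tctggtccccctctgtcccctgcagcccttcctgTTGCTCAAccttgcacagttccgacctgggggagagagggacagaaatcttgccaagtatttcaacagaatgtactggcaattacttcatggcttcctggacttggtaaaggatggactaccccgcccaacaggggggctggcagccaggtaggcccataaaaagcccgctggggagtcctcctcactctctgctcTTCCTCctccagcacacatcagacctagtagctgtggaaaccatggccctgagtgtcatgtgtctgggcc

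The C/EBP letters stood in 4 of the 10 promoters (Ltf, Ngp, Lcn2 and Retnlg) and in none of the 4 primary genes, against 10.8% of 32851 mouse promoters of the same length. The PU.1 letters stood in 7 of the 10 (all 4 primary genes, Ltf, Lcn2 and Cd177), against 28.3% of all. Only Ltf and Lcn2 held both, as did 2.92% of all promoters. In the primary promoters shown, GAGGAA ended 80 bases before the RefSeq start of Elane and 90 bases before that of Prtn3. Ngp held 2 C/EBP matches, which ended 131 and 4 bases before its start, and the promoter of Camp held neither set of letters. A match of letters is a description of the window and not a measured binding site.

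Of the deposited cell types, Neutrophil had the highest CPM of 9 of the 10 genes in both libraries, with an interval clear of the next cell type. Retnlg was the exception, with Granulocyte first in steady state (6824 CPM, 6740 to 6909) and Neutrophil first after GM-CSF (10698 CPM, 10607 to 10790). Behind Neutrophil, the next level of Prtn3 was 9.66 CPM in steady-state MoMacDC_c1 and 21.6 CPM in MoMacDC_c4 after GM-CSF. The next levels of Ltf were close together in steady state, 157 CPM in Progenitor DC and 152 CPM in MoMacDC_c2, with overlapping intervals. After GM-CSF the next level of Camp was 1052 CPM in cDC2-A, on 66 UMIs in 20 cells, and that of MoMacDC_c2 was 718 CPM. The second highest level of Lcn2 was that of Granulocyte in both libraries, and for Cd177 it was MoMacDC_c1 in steady state (110 CPM) and Granulocyte after GM-CSF (109 CPM). The heat map of levels by cell type sets out the whole pattern.

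**Figure D1:**
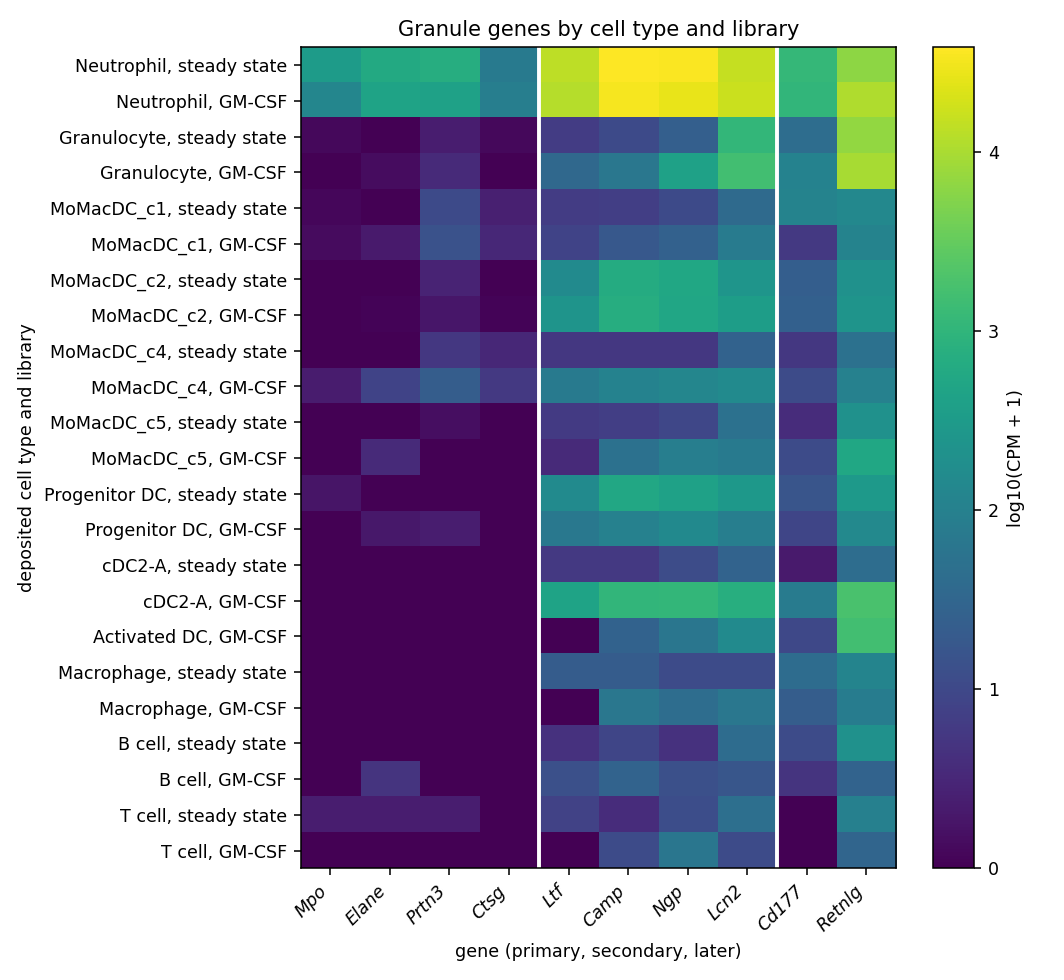
Level of each gene, as log10(CPM + 1), in each deposited cell type with at least 20 cells in a library, with white lines between the primary, secondary and later genes. The primary genes are brightest in the Neutrophil rows, whereas Retnlg is about as bright in the Granulocyte rows, and the GM-CSF Granulocyte row is brighter than the steady-state one for Ltf, Camp and Ngp.

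Primary granule transcripts belonged almost wholly to the Neutrophil class. Mpo encodes the peroxidase that makes hypochlorous acid, and it stood at 330 CPM (297 to 366) in steady-state Neutrophil cells and at 127 CPM (117 to 137) after GM-CSF. Elane, neutrophil elastase, stood at 612 (567 to 660) and 455 CPM (436 to 474). Prtn3, proteinase 3, stood at 721 (672 to 773) and 419 CPM (402 to 438), and Ctsg, cathepsin G, at 77.9 (62.2 to 96.3) and 91.0 CPM (82.7 to 99.8). Granulocyte cells held next to none of these molecules. Over 1929 steady-state Granulocyte cells there were 1 Mpo UMI, 0 Elane UMIs, 5 Prtn3 UMIs and 1 Ctsg UMI, and over 1791 after GM-CSF there were 0, 1, 6 and 0. Summed over the 4 genes, Neutrophil cells were 914-fold above Granulocyte cells in steady state (443 to 2277) and 376-fold above after GM-CSF (183 to 936).

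The primary level of the Neutrophil class rested on very few cells. In steady state 1 cell held 1441 of the 1900 primary UMIs, or 75.8%: 316 of Mpo, 493 of Elane, 553 of Prtn3 and 79 of Ctsg among its 34279 UMIs. It also held 114 UMIs of Camp and 101 of Ngp, 5 of Lcn2 and none of Ltf, Cd177 or Retnlg, and it was not called a doublet. After GM-CSF the leading cell held 902 of 5388 primary UMIs, or 16.7%. Cells with at least 20 primary UMIs, 4 in steady state and 21 after GM-CSF, together held 99.3% and 96.6% of the primary UMIs of the class. With the leading cell of each class left out in each library, Granulocyte included, the sum was 266-fold above Granulocyte in steady state and 367-fold after GM-CSF.

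Counted as cells, 6 of 146 Neutrophil cells in steady state (4.11%, 1.52% to 8.73%) and 46 of 893 after GM-CSF (5.15%, 3.80% to 6.81%) had at least 2 primary UMIs. The intervals, which cover counting error only, overlapped. With every cell thinned to 1000 UMIs the shares were 2.05% and 2.73%. None of the 1929 and 1791 Granulocyte cells reached 2 primary UMIs, with upper interval limits of 0.191% and 0.206%. B cells (196 cells, median 2976.5 UMIs) and T cells (174 cells, median 3747 UMIs) of the steady-state library, which do not make these proteins, had none either. Their upper limits were 1.86% and 2.10%. At a minimum of 1 UMI the Neutrophil shares were 7.53% and 7.50%, and in steady state 7.83% of MoMacDC_c1 cells also passed. There only 0.705% had 2 UMIs or more. After GM-CSF 26 of 595 MoMacDC_c4 cells (4.37%, 2.87% to 6.34%) had at least 2 primary UMIs, an interval that overlapped that of Neutrophil. Those 595 cells were deeper, with a median of 9709 UMIs, and after thinning their share was 0.341%, beside 2.73% in Neutrophil cells.

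Primary genes were often found together in a cell. Of the 6 steady-state cells with at least 2 primary UMIs, 4 had all 4 genes, and of the 46 after GM-CSF, 15 had all 4 genes, 6 had 3, 9 had 2 and 16 had 1. The primary-positive cells were deep, with medians of 22910 and 15607 UMIs against 6242 and 4247 in the other Neutrophil cells, and none of them was called a doublet. Depth thus differed with the split, so the ratios below, of CPM with the primary genes left out of the total, are followed by ratios after thinning every cell to 1000 UMIs where these moved.

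Secondary granule genes were present in the primary-positive cells, some of them at the level of the other Neutrophil cells. Camp, the precursor of the cathelicidin peptide, stood at 0.768 times the other cells in steady state (0.744 to 0.793) and 1.06 times after GM-CSF (1.05 to 1.08). Ngp, a cystatin-like granule protein, stood at 0.527 and 0.793 times, and Lcn2, the siderophore-binding lipocalin, at 0.431 and 0.544 times. Ltf, lactoferrin, was lower at 0.256 times in steady state (0.234 to 0.279) and 0.288 times after GM-CSF (0.277 to 0.299). Cd177, a surface glycoprotein of neutrophils, stood at 0.395 and 0.389 times. After thinning to 1000 UMIs the steady-state ratio of Camp was 1.02 (0.882 to 1.17) and the GM-CSF ratio 1.29 (1.23 to 1.36), while those of Ltf were 0.345 and 0.338. The thinned ratio of Cd177 was 0.422 after GM-CSF, and in steady state it was 0.137 with an interval from 0.00345 to 0.774.

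Retnlg, Mmp8 and Mmp9 were nearly missing from those cells, unlike Cd177. Retnlg, a resistin-like secreted protein, had 5 UMIs in the 6 primary-positive cells of steady state, 0.00478 times the CPM of the others (0.00155 to 0.0112), and 79 UMIs in the 46 cells after GM-CSF, 0.00870 times (0.00688 to 0.0109). Mmp8 and Mmp9, a collagenase and a gelatinase, stood at 0.00313 and 0.00348 times in steady state, each on 1 UMI, and at 0.00927 and 0.0110 times after GM-CSF. Ly6g, a surface marker of maturing neutrophils, stood at 0.0537 and 0.119 times. Ms4a3, expressed in granulocyte and monocyte progenitors, was 33.0-fold higher in the primary-positive cells of steady state (21.3 to 53.0) and 18.2-fold higher after GM-CSF (15.4 to 21.6). In steady state 74 of the 122 Ms4a3 UMIs of the 6 cells lay in the cell with 1441 primary UMIs. The steady-state ratios thus rest on few cells, a spread that the intervals do not cover. Fcnb, ficolin B, was 8.05-fold and 5.64-fold higher, Igfbp4 12.6-fold and 35.3-fold higher, and a list of 9 cell cycle genes 3.61-fold and 3.09-fold higher. After thinning, Ms4a3 was 55.0-fold (12.6 to 330) and 37.4-fold (21.4 to 67.4) higher, the cell cycle list 4.81-fold and 6.27-fold, Fcnb 9.43-fold and 8.37-fold, and Igfbp4 after GM-CSF 91.2-fold with an interval from 10.2 to 4314.

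**Figure D2:**
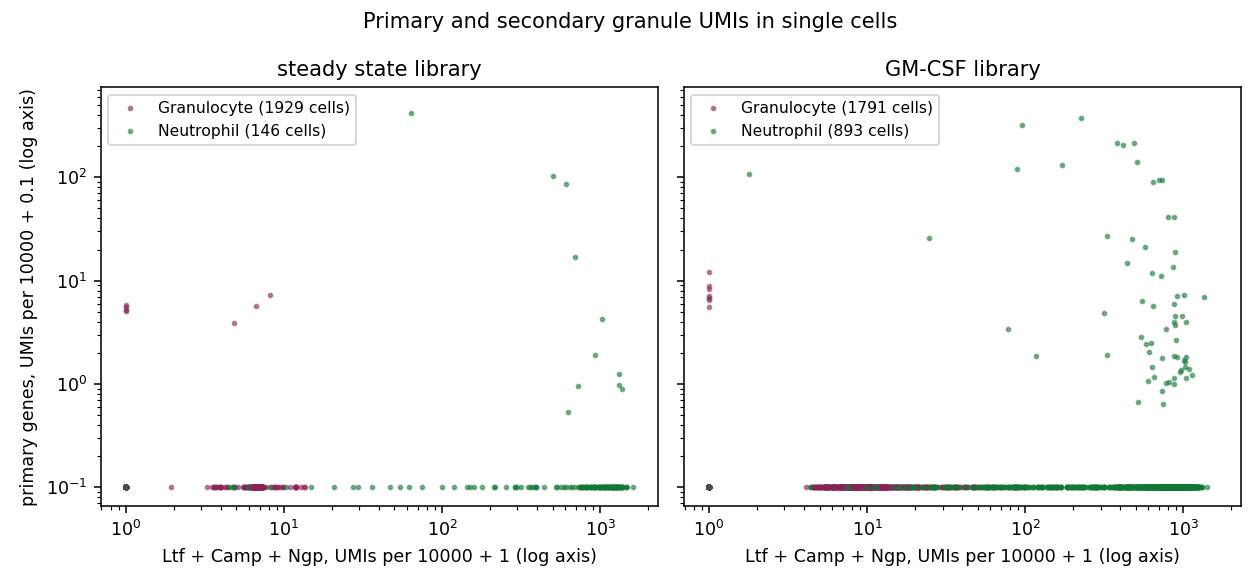
Each point is a cell, with its Ltf, Camp and Ngp UMIs per 10000 UMIs (+ 1) on the horizontal log axis and its primary gene UMIs per 10000 (+ 0.1) on the vertical log axis, for 146 and 893 Neutrophil cells (green) and 1929 and 1791 Granulocyte cells (purple). Cells with no primary UMI form the bottom row; the steady-state cell at the top is the one that held 75.8% of the primary UMIs of its class, and the Granulocyte points above the bottom row are cells with a single primary UMI.

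Secondary granule transcripts set Neutrophil apart from Granulocyte as well, gene by gene to very different degrees. Ltf stood at 13329 CPM (13114 to 13548) in steady-state Neutrophil cells and 5.44 CPM (3.32 to 8.41) in Granulocyte cells, and at 11655 and 34.0 CPM after GM-CSF. Camp stood at 38292 and 9.80 CPM in steady state and at 33209 and 65.5 CPM after GM-CSF. Ngp stood at 36216 and 23.1 CPM in steady state and at 27255 and 417 CPM after GM-CSF. The Neutrophil to Granulocyte ratios were thus 2449 and 343 for Ltf, 3909 and 507 for Camp, and 1566 and 65.3 for Ngp, in steady state and after GM-CSF. Lcn2 was different, since Granulocyte cells kept 1075 CPM (1041 to 1109) of it in steady state and 1550 CPM (1501 to 1600) after GM-CSF. Its ratios were 13.9 and 10.5, from 14903 and 16249 CPM in Neutrophil cells.

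Of the later genes, Cd177 was higher in Neutrophil cells, at 1146 against 43.3 CPM in steady state (26.5-fold) and 1044 against 109 CPM after GM-CSF (9.62-fold). Retnlg did not follow. Its ratio was 0.950 in steady state and 1.10 after GM-CSF when UMIs were summed, but 1.73 and 2.43 as the mean over cells of UMIs per 10000, and 1.78 and 1.92 after thinning to 1000 UMIs. By the size rule used throughout, a CPM ratio of at least 2 or at most 0.5 among genes with at least 50 UMIs and 0.5 counts added to each sum, 9 of the 10 genes were higher in Neutrophil cells and none was lower in both libraries. Of all genes tested, 13.6% were higher and 27% lower in steady state, and 14.9% were higher and 25.4% lower after GM-CSF. The median log2 ratio of the 10 genes was 9.29 in steady state and 7.85 after GM-CSF, beside -0.34 and -0.37 over all genes tested.

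**Figure D3:**
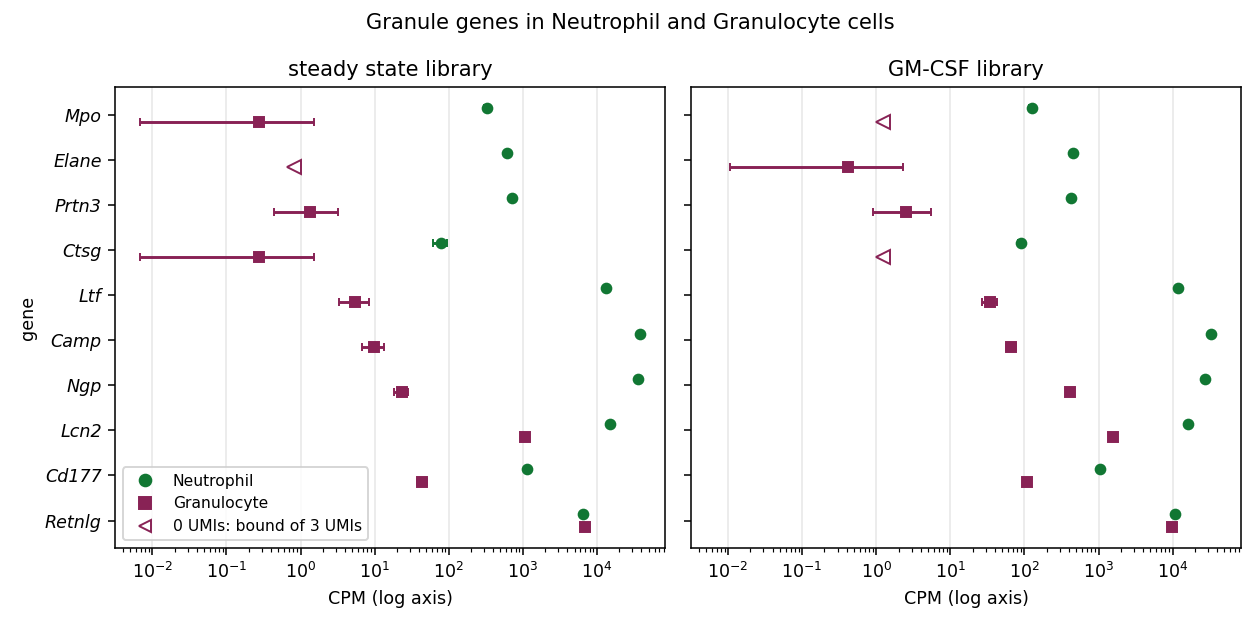
CPM of each gene in Neutrophil cells (green circles) and Granulocyte cells (purple squares) on a log axis, by library, with exact 95% Poisson intervals that are often smaller than the symbols; open triangles mark 0 UMIs, drawn at the bound of 3 UMIs. The symbols are far apart for every gene except Retnlg, and the Granulocyte squares of Ltf, Camp and Ngp lie further right after GM-CSF.

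The make-up of the granule transcripts gave the same contrast without a level. Ltf, Camp and Ngp made up 78.3% of all UMIs of the 10 genes in steady-state Neutrophil cells and 0.481% in Granulocyte cells, where Retnlg made up 85.5%. After GM-CSF the 3 genes made up 71.3% and 4.35%, and Retnlg made up 10.6% of the UMIs in Neutrophil cells and 81.7% in Granulocyte cells.

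Other genes of the neutrophil lineage were read from lists. Of an azurophil stage list, 5 of 7 genes tested were higher in Neutrophil cells in steady state and 5 of 8 after GM-CSF, among them Ms4a3 at 135 against 0.272 CPM in steady state and Serpinb1a, a protease inhibitor, 86.2-fold and 49.8-fold. Srgn, the core of the granule proteoglycan, went the other way at 0.0811 and 0.148 times. Of a specific and gelatinase granule list, 9 of 16 and 10 of 17 genes were higher, among them Lyz2 (lysozyme, 5.60-fold and 3.21-fold) and Chil3 (466-fold and 97.5-fold). Mmp8 was 3.05-fold and 2.16-fold higher, a much smaller ratio. Of a late neutrophil list of 15 genes, 10 were lower in steady state and 9 after GM-CSF, for example Csf3r, the G-CSF receptor (0.0752 and 0.0731 times), Cxcr2, a chemokine receptor of mature neutrophils (0.140 and 0.151 times), and Il1b (0.0197 and 0.0159 times), while S100a8, S100a9 and Ly6g were higher in both. Of the transcription factors, 1 of 5 tested was higher in steady state and 3 of 7 after GM-CSF. Cebpe, a C/EBP factor of the secondary granule stage, was higher in both (17.4-fold and 8.50-fold), and Gfi1 and Myb passed the rule after GM-CSF. Cebpb and Spi1, which encodes PU.1, were lower in both. All 9 cell cycle genes tested were higher in both libraries.

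The genes whose level followed a class most closely were ranked by the correlation of log2(CPM + 1) over 23 groups of a cell type in a library, among 9751 genes with at least 200 UMIs. Those groups share 2 libraries and differ in depth, so the coefficients are descriptions. For the primary sum they were Ms4a3 (r = 0.914), Lbp (0.913), F730016J06Rik (0.910), Tnnt1 (0.892) and 1810055G02Rik (0.873). For the secondary sum they were Cebpe (0.923), Ly6g (0.901), Ppp1r42 (0.878), 4930438A08Rik (0.876) and Tinagl1 (0.871).

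Neutrophil and Granulocyte cells were then placed together in 5 ranges of Ltf, Camp and Ngp UMIs per 10000, which are ranges of a score and not cell types. In steady state no Granulocyte cell passed 12.5 per 10000, and after GM-CSF the highest reached 277, with 55 of 1791 cells at 30 or more. Neutrophil cells had medians of 916 and 720 per 10000, and 79.5% and 78.3% of them stood at 300 or more. The ranges held 1941, 7, 11, 54 and 62 cells in steady state and 1767, 121, 97, 573 and 126 after GM-CSF, from under 30 to over 1000. Of the Neutrophil cells 74 and 440 lay within 1.25-fold of a boundary. The levels below leave the 3 genes out of the total.

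Along these ranges Retnlg was highest in the middle. After GM-CSF it stood at 9551 CPM under 30, 37150 from 30 to 100, 35646 from 100 to 300, 8250 from 300 to 1000 and 4138 over 1000. In steady state it stood at 7148 under 30, 6670 from 300 to 1000 and 1393 over 1000, and at 14274 and 27820 in the middle ranges of only 7 and 11 cells. Mmp8 had the same shape after GM-CSF, from 877 CPM under 30 to 4258 from 100 to 300 and 1213 over 1000. Lcn2 instead increased at each step after GM-CSF, through 1554, 6060, 9684, 18028 and 24193 CPM. Cd177 also increased, through 105, 558, 938, 1176 and 1300 CPM after GM-CSF, and through 46.9, 213, 1180, 1203 and 1499 CPM in steady state. Cxcr2 decreased from 1448 to 125 CPM after GM-CSF and from 2383 to 206 CPM in steady state, between the first and the last range.

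Primary transcripts did not follow the secondary score. Over 1000 per 10000 they summed to 20.4 CPM (9.33 to 38.8) in steady state and 40.2 CPM (27.5 to 56.7) after GM-CSF, with no cell there above 12 primary UMIs. From 300 to 1000 they summed to 1087 and 800 CPM. Below 300, 1 cell in steady state and 7 cells after GM-CSF had at least 20 primary UMIs, and 3 of the 7 lay under 30. Cells with much primary and little secondary RNA were thus present but few.

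**Figure D4:**
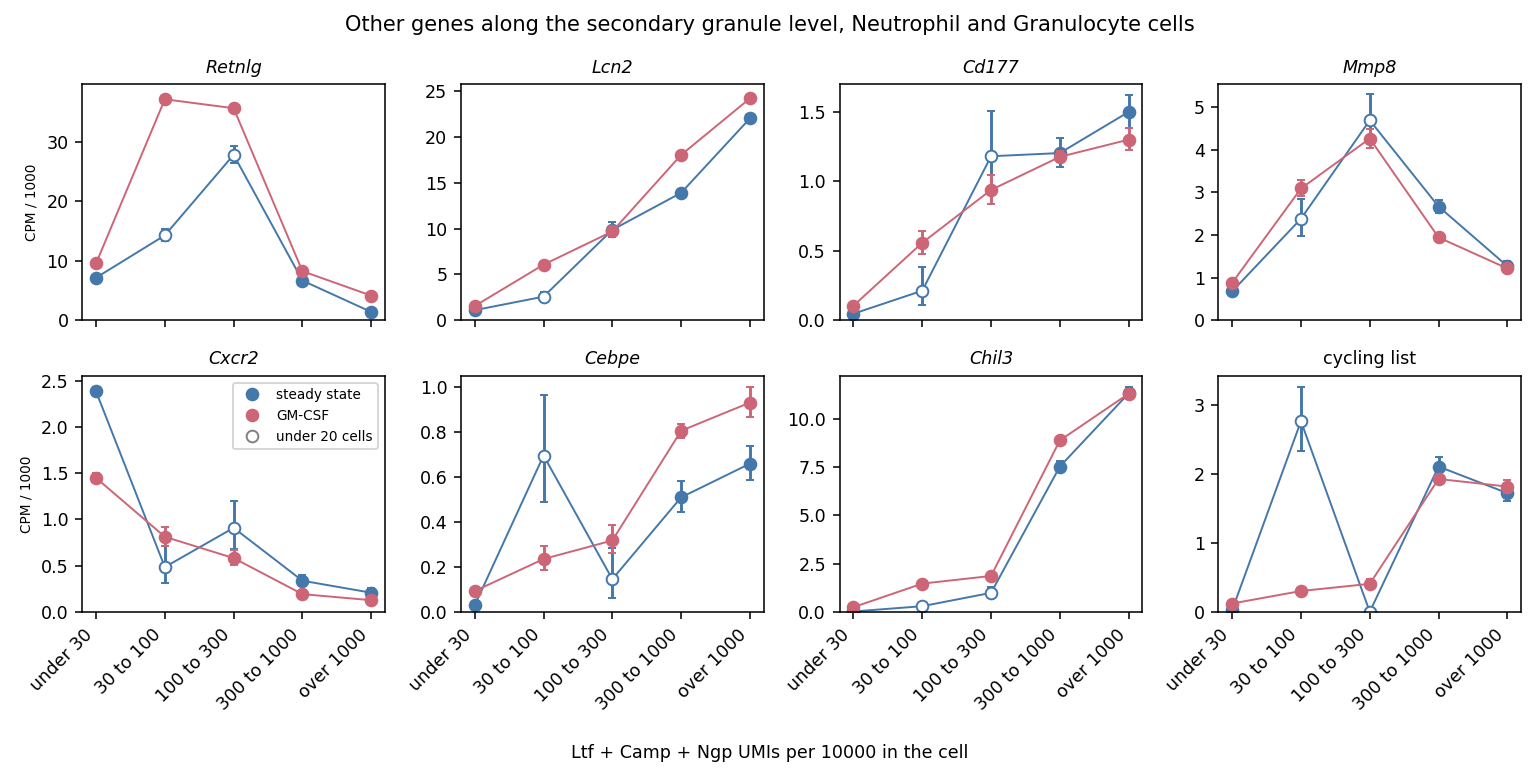
Level of 7 genes and a cell cycle list in CPM divided by 1000, without Ltf, Camp and Ngp in the total, in 5 ranges of Ltf, Camp and Ngp UMIs per 10000 over Neutrophil and Granulocyte cells, with exact 95% Poisson intervals, in steady state (blue) and after GM-CSF (red); open symbols hold under 20 cells. Retnlg and Mmp8 peak in the middle ranges, and Lcn2, Cd177 and Chil3 climb to the right. Cxcr2 descends after GM-CSF, while in steady state it is higher from 100 to 300 than from 30 to 100, both with under 20 cells.

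Between the libraries, the Neutrophil class kept most granule genes within the 2-fold rule. None of the 10 genes was past 2-fold higher after GM-CSF, where 3.62% of all genes were, and 1 was past 2-fold lower, Mpo at 0.384 times (0.336 to 0.438), where 2.48% of all genes were. The primary sum stood at 0.627 times its steady-state level (0.595 to 0.661), with Elane at 0.743, Prtn3 at 0.581 and Ctsg at 1.17 (0.924 to 1.49). These values turned on the single steady-state cell described above. Without the leading cell of each library the primary sum was 2.10 times the steady-state level, Mpo 2.79, Elane 2.26, Prtn3 1.60 and Ctsg 12.2 times, so neither direction is carried by the class as a whole. The secondary sum stood at 0.860 times, with Ltf at 0.874, Camp at 0.867, Ngp at 0.753 and Lcn2 at 1.09 times. Cd177 stood at 0.912 and Retnlg at 1.65 times. Of the other lists only Olfm4, Ceacam10, Ccl6 and Stfa2l1 were past 2-fold higher, for example Ccl6 at 501 against 150 CPM, and Igfbp4, Il1b and Wfdc17 past 2-fold lower.

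In the Granulocyte class more of the genes stood higher after GM-CSF. Of the 6 genes with at least 50 UMIs, 4 were past 2-fold higher (Ltf, Camp, Ngp and Cd177), where 7.29% of all genes were, and none was lower, where 3.2% were. Ngp stood at 417 against 23.1 CPM, 18.0-fold (14.4 to 22.8), Camp at 6.68-fold (4.63 to 9.89), Ltf at 6.24-fold (3.79 to 10.8) and Cd177 at 2.51-fold (2.05 to 3.08). Lcn2 was 1.44-fold and Retnlg 1.42-fold higher. Without the 55 cells at 30 or more per 10000 the ratios were 8.77 for Ngp, 4.86 for Camp and 5.40 for Ltf.

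Lymphocytes do not make these proteins, so the levels in B and T cells are given as a background measured in the same libraries, and the part of such background in the Granulocyte values was not tested. Of the 196 B cells and 174 T cells in steady state, 15 each were called doublets, and of the 79 and 39 after GM-CSF, 3 and 1. B cells held 14.8 CPM of Ltf, Camp and Ngp together in steady state (7.90 to 25.4) and 51.8 CPM after GM-CSF (27.6 to 88.6), and T cells held 20.6 and 72.0 CPM, beside 38.4 and 517 CPM in Granulocyte cells. The share of Granulocyte cells with an Ngp UMI was 3.99% in steady state and 19.5% after GM-CSF, or 2.34% and 17.6% after thinning, which left out 8 and 496 cells under 1000 UMIs. In B cells it was 1.53% and 2.53%, and in T cells 4.60% and 12.8% (4.30% to 27.4%, 39 cells). Granulocyte cells after GM-CSF held 82 Ltf, 158 Camp and 1007 Ngp UMIs, and Neutrophil cells of the same library 57531, 163920 and 134532, so Ngp was above Camp in the first and below it in the second. In steady state the Granulocyte level of Ltf, at 5.44 CPM, was no higher than the 6.88 CPM of T cells. Retnlg was found in 86.5% of Granulocyte cells in steady state and 57.1% after GM-CSF, or 81.5% and 63.5% after thinning, against its CPM, and in 9.69% and 8.86% of B cells, so no order is read from those shares. A share of 0.5 of the Retnlg UMIs lay in 274 Granulocyte cells in steady state and in 112 after GM-CSF.

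Genes beside the members in the Granulocyte class included Ly6g (4.72-fold higher after GM-CSF), Cebpe (2.84-fold), Cybb, a subunit of the phagocyte oxidase (3.12-fold), and Chil3 (4.90-fold). Srgn (0.398 times), Il1b (0.374 times), Hdc (0.263 times) and Wfdc17 (0.203 times) were past 2-fold lower.

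The MoMacDC bundle, 6075 cells in 17 clusters of which 0 carried a Granulocyte or Neutrophil label, still held granule transcripts in clusters 11, 14 and 15. Cluster 11 had 157 cells in steady state and 77 after GM-CSF, cluster 14 had 35 and 7, and cluster 15 had 7 and 33. Against the other bundle clusters the secondary sum of the 3 together was 92.8-fold higher in steady state (83.6 to 103) and 187-fold higher after GM-CSF (180 to 195). Cluster 15 held most of it. Of the 3587 Ltf, Camp and Ngp UMIs of the 3 clusters in steady state, 3563 lay in its 7 cells. After GM-CSF 14787 of 15343 lay in its 33 cells. Of the 7 genes tested in steady state 5 were past 2-fold higher (Ltf, Camp, Ngp, Lcn2 and Retnlg), where 3.52% of all genes were. After GM-CSF 6 of the 8 tested were, with Cd177 added, where 5.17% of all genes were. The other 2, Elane and Prtn3, had 0 UMIs in the 3 clusters and passed the rule as lower with the 0.5 added counts. For Elane the bound of 3 counts, 3.06 CPM, lies above the 2.18 CPM of the other clusters, so its call is not read as a fold. Of the late neutrophil list 11 of 14 genes tested were higher in these clusters in steady state and 12 of 14 after GM-CSF. Of the specific and gelatinase granule list 4 of 13 and 10 of 15 were higher, with Mmp8 and Mmp9 in both. The paper names Cxcr2, Hdc, Slpi, Mxd1, Csf3r, Il1b, S100a8, S100a9 and Mmp9 as marker genes of these clusters from the same cells. These lists share those genes, so the counts are descriptions and not independent support. Of the azurophil list 3 of 6 and 2 of 5 were higher, of the transcription factors Cebpe alone, and of the 9 cell cycle genes 8 and 9 were lower. The share of all genes past 2-fold lower was not counted for this comparison, so the counts of lower genes have no background beside them.

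The 3 clusters differed in which granule genes they held. Cluster 15 had the secondary profile, with Camp at 14957 CPM in steady state (14262 to 15678) and 17876 CPM after GM-CSF, Ngp at 12026 and 13361, Ltf at 3733 and 6402, and Lcn2 at 5776 and 9003 CPM. Ltf, Camp and Ngp made up 74.3% and 73.7% of its granule UMIs, beside the 78.3% and 71.3% of Neutrophil cells. Cluster 11 had the Granulocyte profile, with Retnlg at 1066 CPM in steady state and 3805 CPM after GM-CSF and Lcn2 at 242 and 844 CPM, while Camp stood at 3.15 and 281 CPM. There the 3 genes made up 0.974% and 17.5% of the granule UMIs, and after GM-CSF 1 cell held 285 of their 551 UMIs. Cluster 14 resembled cluster 11 in steady state, with Retnlg at 1083 CPM and Lcn2 at 261 CPM, and held 1 UMI each of Ltf and Camp and 5 of Ngp.

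No primary transcript was found in cluster 15. Mpo, Elane, Prtn3 and Ctsg had 0 UMIs in its 7 and 33 cells, beside 3563 and 14787 UMIs of Ltf, Camp and Ngp. At the ratio of primary to Ltf, Camp and Ngp UMIs in the Neutrophil class, cluster 15 would hold 70.6 and 224 primary UMIs. In the Neutrophil class most primary UMIs lay in few cells, 4 of 146 and 21 of 893. That ratio rests on those few cells, so no deficit of primary UMIs is read from the 7 and 33 cells of cluster 15. The reason for the absence of primary UMIs from cluster 15 was not tested. Over clusters 11, 14 and 15 after GM-CSF all 4 genes had 0 UMIs, which places Prtn3 at least 3.16-fold below the 9.65 CPM of the other clusters, against a floor of 3 counts over the group. For Elane, with 2.18 CPM in the other clusters, that floor is above the level and no fold is given. In steady state the 4 genes summed to 5.78 CPM (2.77 to 10.6) in the 3 clusters and 8.09 CPM (6.63 to 9.78) in the others.

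The same clusters carried many doublet calls and UMIs of other marker lists. Scrublet called 85 of 157 cells in steady state and 69 of 77 after GM-CSF in cluster 11, 0 of 35 and 6 of 7 in cluster 14, and 4 of 7 and 32 of 33 in cluster 15. In the other clusters it called 2 of 1936 and 61 of 3823. Dendritic cell markers summed to 1509 CPM in steady state and 2805 CPM after GM-CSF in cluster 15, where the highest gene alone gave 1371 and 2665 CPM. They summed to 5335 CPM in cluster 14 in steady state, of which H2-Aa, an MHC class II gene, gave 4594 CPM. The other bundle clusters held 1567 CPM of this list in steady state and 4808 CPM after GM-CSF. Classical monocyte markers summed to 2815 CPM in cluster 11 in steady state, beside 4163 CPM in the other bundle clusters. Neutrophil markers summed to 154589 CPM in cluster 15 in steady state and 149916 CPM after GM-CSF. Without the called cells the secondary ratio of the 3 clusters was 71.9 in steady state and 15.6 after GM-CSF. The latter rested on 1 cell of cluster 15 with 64 secondary UMIs, beside 8 UMIs in 8 cells of cluster 11 and 0 in 1 cell of cluster 14. In steady state the 7 cells of cluster 15 stood at 1.07, 2.40, 18.4, 27.9, 591, 598 and 599 Ltf, Camp and Ngp UMIs per 10000, so the level of the cluster rested on 3 cells. The part of doublets in the levels was not tested beyond leaving them out.

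Cluster 15 also set the secondary levels of wider labels. It held 98.8% and 94.1% of the Ltf, Camp and Ngp UMIs of MoMacDC_c2 in steady state and after GM-CSF, in 3 of 177 and 26 of 1471 cells. Without it MoMacDC_c2 stood at 16.3 and 89.8 CPM in place of 1351 and 1464 CPM. In Progenitor DC 1 cell of cluster 15 held 98.2% of these UMIs in steady state, and 3 cells held 43.1% after GM-CSF.

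Among monocyte clusters the granule gene with the clearest pattern was Cd177. In steady state it stood at 126 CPM in cluster 5, 169 CPM in cluster 6 and 63.8 CPM in cluster 2, and after GM-CSF at 5.95, 8.11 and 4.03 CPM. The GM-CSF to steady-state ratios were 0.0474 in cluster 5 (0.0173 to 0.104) and 0.0479 in cluster 6 (0.0191 to 0.0997). The share of cells with a Cd177 UMI was 52.0% against 2.84% in cluster 5 and 57.6% against 4.63% in cluster 6, or 10.9% against 0% and 15.8% against 0.926% after thinning. B cells had 2.55% and 1.27%, at medians of 2976.5 and 2741 UMIs. The make-up of both clusters moved with Cd177, and its part was not tested. Classical monocyte markers summed to 5599 CPM in steady state and 2003 CPM after GM-CSF in cluster 5, and to 8271 and 3094 CPM in cluster 6. Dendritic cell markers summed to 132 and 2126 CPM in cluster 5 and to 66.4 and 434 CPM in cluster 6. The highest gene of that list alone, which need not be the same in both libraries, stood at 90.7 and 2113 CPM in cluster 5. In cluster 6 it stood at 30.5 and 427 CPM. Nearly all of the sums after GM-CSF thus lay in 1 gene, and they do not describe a rise of the list as a whole. The median count of the Ly6C tag was 939 and 78 in cluster 5 and 1272 and 262.5 in cluster 6. Ltf, Camp and Ngp together stood at 16.1 and 15.5 CPM there in steady state.

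**Figure D5:**
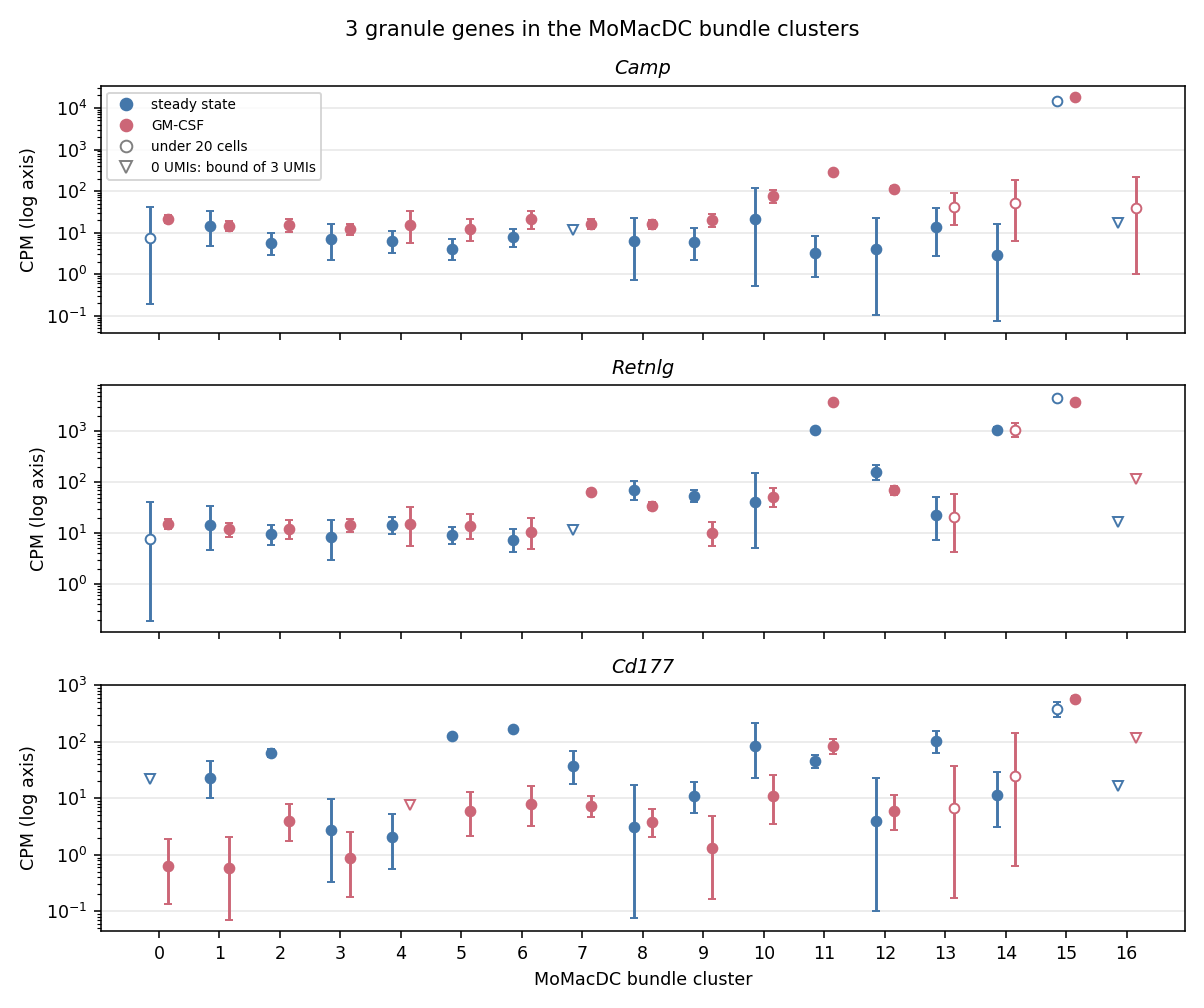
CPM of Camp, Retnlg and Cd177 on a log axis in each of the 17 MoMacDC bundle clusters in steady state (blue) and after GM-CSF (red), with exact 95% Poisson intervals; open circles hold under 20 cells and open triangles mark 0 UMIs at the bound of 3 UMIs. Camp stands out in cluster 15, Retnlg in clusters 11, 14 and 15, and Cd177 is higher in steady state in clusters 2, 5 and 6.

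Cluster 6 differed in other genes too, on few cells. After GM-CSF its 108 cells held 83 Prtn3 UMIs, at 96.1 CPM against 18.2 CPM in steady state (5.28-fold, 3.58 to 7.91), of which 31 lay in 1 cell, and the ratio was 3.57 without the leading cell of each library. They held 461 Lcn2 UMIs, 31.7-fold above steady state (22.7 to 45.6), of which 218 lay in 1 cell, and the ratio was 19.2 without the leading cell of each library. Ctsg in the bundle after GM-CSF lay mostly in single cells, with 22 of 23 UMIs of cluster 7 in 1 cell and 17 UMIs in 1 of the 2 cells of cluster 16.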

How the data were processed

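CITE-seq libraries of CD11b+ splenocytes, 1 in steady state and 1 after GM-CSF, were analysed from the deposited tables. Per the sources, the authors aligned the 3′ RNA reads to mm10 with Cell Ranger 3.0.2, left out cells with under 200 or over 5000 genes or over 15 percent mitochondrial UMIs, and integrated, clustered and named the cells. The deposited RNA and antibody tag tables hold raw counts, and the deposited cell table holds the mitochondrial percent, cell type, condition and, for the MoMacDC bundle, cluster and phase. Groups were taken from these labels. Of 4 samples, 2 are the RNA and 2 the tag part of the same libraries, so each condition has 1 sample.

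UMIs were summed per group and given as CPM, with 95% exact intervals and a floor of 3 counts. A size rule of 2-fold applied to genes with at least 50 UMIs, with 0.5 counts added to each sum, and was checked on simulated counts. Shares were also taken after thinning each cell to 1000 UMIs. Scrublet, run in scanpy 1.11.5 on each library by itself, marked 141 and 186 cells as doublets, which were kept in the main values and left out only as an alternative; whether doublets were removed before deposit is not given in the sources used here. All 10 genes are named, with counts and 2 to 4 examples of each list. The genes and lists were chosen with earlier results of these data known. The alternatives were leaving out doublet calls, thinning, totals without the 10 genes, means over cells, other minimum counts and leaving out leading cells; leaving out the single leading cell, and the Granulocyte cells at 30 or more per 10000, was chosen after seeing the data. Python 3.11.15, numpy 2.4.6, scipy 1.17.1 and pandas 2.3.3 were used. The antibody tags (5 proteins) cover no granule protein.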

Additional observations from a re-analysis of the deposited data

Results flagged for a closer look

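The GM-CSF to steady-state ratios of 4 genes pointed in different directions in the 2 granulocyte classes, and these differences were not tested, since each condition is 1 library. Ltf stood at 0.874 times in Neutrophil cells and 6.24 times in Granulocyte cells, Camp at 0.867 and 6.68 times, Ngp at 0.753 and 18.0 times, and Cd177 at 0.912 and 2.51 times. Each of the 8 ratios kept its direction under the alternatives run for it.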

How the results depend on the processing

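Of 275 values recomputed under the alternatives, 148 moved by less than their counting interval (counts of genes by less than 1.5 times), 126 moved and 1 that was past the 2-fold rule changed direction. Mpo in Neutrophil cells was 0.384 times its steady-state level after GM-CSF and 2.79 times without the leading primary cell of each library. That setting, chosen after seeing the data, also took ratios within the rule across 1: the primary sum from 0.627 to 2.10 (1.28 without the top 1% of cells), Elane from 0.743 to 2.26 (1.05 thinned) and Prtn3 from 0.581 to 1.60. Without the leading cell of each class the Neutrophil to Granulocyte primary ratio in steady state was 266. In the order steady state and GM-CSF, thinning to 1000 UMIs gave Neutrophil to Granulocyte primary ratios of 276 and 69.7 and means over cells gave 223 and 109. The secondary ratio was 41.2 after GM-CSF with thinning, 99.7 and 47.5 without the top 1% of cells, 103 and 47.0 with totals without the 10 genes, and 88.5 and 47.3 as means over cells. In Neutrophil cells the GM-CSF to steady-state ratio was 0.748 thinned and 0.760 as means for the primary sum, and for the secondary sum 0.848 without doublet calls, 0.830 thinned, 0.853 without the top 1%, 0.850 with the other total and 0.836 as means. The bundle ratio was 71.9 and 15.6 without doublet calls, 48.3 and 139 thinned, 39.4 and 305 without the top 1% of cells, and 44.4 and 114 as means. The share of primary-positive cells after GM-CSF was 2.73% thinned and 7.50% at 1 UMI. Genes past 2-fold depended on the minimum, as fewer or more genes are tested. With 20 UMIs 1439 genes were higher in steady-state Neutrophil than Granulocyte cells, 439 higher and 386 lower after GM-CSF in Neutrophil, 815 higher in Granulocyte and 813 higher in the bundle clusters after GM-CSF. With 200 UMIs the counts were 242 higher and 1053 lower, and after GM-CSF 453 and 1041, for Neutrophil to Granulocyte, 84 and 34 between libraries in Neutrophil, 147 and 118 in Granulocyte, and 190 and 277 higher in the bundle. Thinned, they were 293 higher in steady state, 316 higher and 1174 lower after GM-CSF, 139 and 56 in Neutrophil and 224 in the steady-state bundle. The cause of these shifts was not tested. No paired analysis was possible because each condition is 1 library. Shallow Granulocyte cells and 7 cells in steady-state cluster 15 limit those values.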
